A study of Homo sapiens with 4 samples.

Results

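The genes described here write, erase and read acyl marks on histones: 12 acyltransferases, 11 zinc-dependent deacetylases, 7 sirtuins and 6 bromodomain readers. They were taken by symbol from a fixed list of 36 names, because 3-hydroxybutyrate, the ketone body that the enzyme BDH1 interconverts with acetoacetate, can modify histones and inhibit deacetylases. All 36 were found among the 25122 genes of the deposited table. The 4 mRNA libraries came from Jurkat, a long-established line grown from a human T-cell leukaemia (T-ALL), and the labels give the genotype as wild type throughout. The shcontrol group (2 libraries) carried a control short hairpin RNA and the shBDH1 group (2 libraries) a short hairpin RNA against BDH1. The labels give no hairpin sequence, no number of hairpins, no time after their introduction and no separate cultures, so the spread between libraries of a group may be technical. The study's description also mentions cells in which MYC was restored, which were not analysed here.

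Acyltransferases move an acetyl or longer acyl group from coenzyme A onto lysines of histone tails, which loosens the hold of histones on DNA and creates docking sites for bromodomains. Zinc-dependent deacetylases and the NAD-dependent sirtuins take the groups off again. The acyltransferase p300 can also place 3-hydroxybutyryl groups on lysine, and class I deacetylases and some sirtuins can remove them. Bromodomain proteins bind acetylated lysine and recruit the transcription machinery or chromatin remodellers, and in T-ALL bromodomain inhibitors are known to lower MYC transcription.

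The 4 libraries held between 28681511 and 29453383 reads in genes, and all values below are the authors' normalized counts, that is reads divided by 1 size factor per library. BDH1 (ENSG00000161267, chr3:197509783-197573323, hg38) was at 1725 and 1911 normalized counts in shcontrol and at 1221 and 1412 in shBDH1, which is -0.47 on the log2 scale (SE 0.08, adjusted p = 1.5e-05 by limma), so the target's mean fell by 27.6% only. The 11 T cell markers checked, among them LCK, a kinase of T cell receptor signalling, were all present. Their summed level was 49198 and 49341 in shcontrol and 59359.7 and 59730.3 in shBDH1. By limma at an adjusted p under 0.05, 7 of the 11 were higher and 1 was lower, beside 20.3% and 20.8% of all genes tested. Summed markers of B cells went from 131 and 151 to 619 and 609 (3 genes, of which CD79A alone reached 601), those of NK cells from 89.3 and 82.8 to 241 and 190.1 (4 genes), those of myeloid cells from 61.6 and 67.5 to 84.5 and 85.5 (5 genes), and fibroblast and epithelial ones from 718 and 732 to 1031 and 922 (3 genes). None of these markers was at 0 in all libraries. Other markers that were looked for had no entry among the deposited genes. These were MS4A1 and CD79B of B cells, KLRF1 of NK cells, MPO of myeloid cells, and COL1A2, DCN and EPCAM. All 5 markers of erythroid cells and megakaryocytes were also without an entry. The part of the markers in the results below was not tested. In bulk RNA, fewer cells of a kind and less RNA per cell cannot be told apart.

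Expression of the histone acylation genes shifted in both directions, mostly by small amounts. Of the 34 genes that passed the filter on low values (a mean of at least 10 normalized counts), 11 rose and 12 fell in shBDH1 (limma on log2(normalized count + 1), Benjamini-Hochberg adjusted p under 0.05). That is 67.6% of them, beside 41.1% of all 19301 genes tested, of which 20.3% rose and 20.8% fell. Calls were commoner among well expressed genes in general: at a mean of at least 1000, 60.9% of genes were called, 26.2% higher and 34.7% lower, and so were 18 of the 26 acylation genes at that level, 9 in each direction. In 30 of the 34 genes the shcontrol and shBDH1 ranges were separate, beside 69.0% of all genes tested. Of the 23 called genes, 21 changed by less than 1.5-fold. The exceptions were BRD3, whose mean fell by 51.4%, and HDAC9, which went up 2.65-fold. A change of at least 2-fold was called for 6.33% of all genes tested. The median log2 fold change of the 34 genes was -0.09, beside -0.01 for all genes.

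The number of calls rested on how the variance was estimated. With 2 libraries a group, the test borrows information on the spread from genes of like abundance. Without that dependence on abundance, 2 of the 34 rose (HDAC9 and KAT2B) and 2 fell (BRD3 and SIRT3). The fall of BDH1 itself was then not called (limma adjusted p = 0.083).

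**Figure D1:**
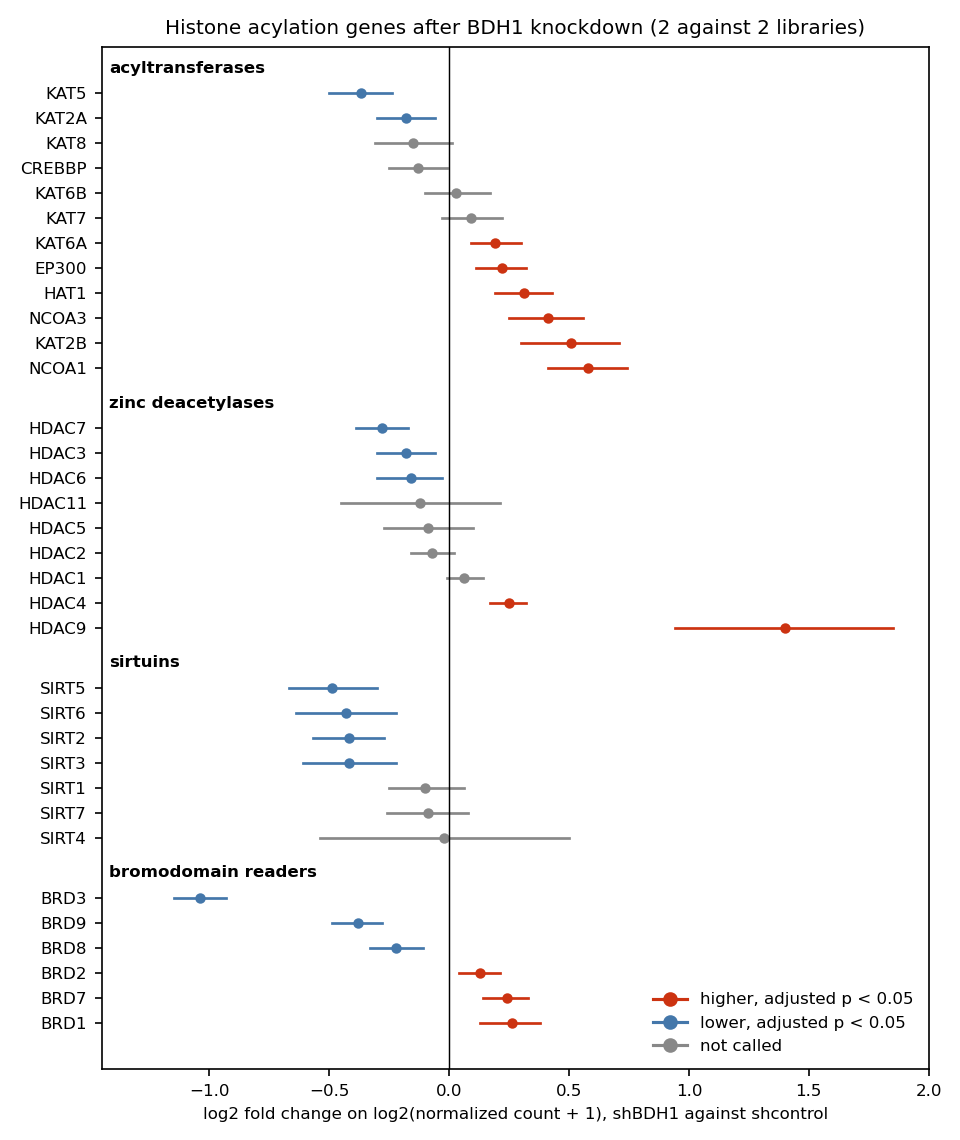
Log2 fold change of the 34 tested genes in shBDH1 against shcontrol (x axis), grouped by class, with 95% intervals from limma as bars and 2 libraries a group. BRD3 at -1.04 and HDAC9 at 1.40 stand farthest from 0, and every sirtuin lies at or left of the zero line.

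The bromodomain readers held the largest fall. BRD3 (ENSG00000169925, chr9:134030305-134068535) is a member of the BET family, whose paired bromodomains bind acetylated histones and transcription factors. It was at 4587 and 4610.4 normalized counts in shcontrol and at 2236 and 2238 in shBDH1, with library pairs so close that the groups stood far apart. The change was -1.04 on the log2 scale, with an SE of 0.05, a 95% interval of -1.15 to -0.93 and an adjusted p of 2.4e-15 by limma. BRD2, the other BET gene on the list, did not fall: it was at 9857 and 9106 in shcontrol and at 10392 and 10305 in shBDH1, a log2 fold change of 0.13 (SE 0.04, adjusted p = 0.014), and this rise was lost without shcontrol replicate 2 (0.07, adjusted p = 0.39) or with no filter on low values (adjusted p = 0.061).

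BRD9 and BRD7, which belong to different forms of the SWI/SNF chromatin remodeller, moved in opposite directions. BRD9, a subunit of the non-canonical form, went from 5192 and 4824 normalized counts to 3712 and 3974, which is -0.38 on the log2 scale (SE 0.05, adjusted p = 6.9e-07 by limma). BRD7, a subunit of the PBAF form, went from 4697 and 4769.8 to 5683 and 5484, a log2 fold change of 0.24 (SE 0.05, adjusted p = 0.00012). Neither gene had groups that overlapped. BRD8, which serves in the NuA4 acetyltransferase complex, fell from 3998 and 3819 to 3254 and 3456 (log2 fold change -0.22). BRD1, a scaffold of MYST-family acetyltransferases, rose from 2767 and 3027 to 3279.8 and 3644 (log2 fold change 0.26). All 6 readers were thus called, 3 in each direction, with a median log2 fold change of -0.05.

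Among the 12 acyltransferases, 6 rose, 2 fell and 4 were not called, with a median log2 fold change of 0.14. The nuclear receptor coactivators NCOA1 and NCOA3, which recruit p300 to promoters, both rose. NCOA1 was at 955 and 1079 normalized counts in shcontrol and at 1565 and 1463 in shBDH1, the largest rise of the class (log2 fold change 0.58, SE 0.08, limma adjusted p = 1.2e-06). NCOA3 went from 1482 and 1772 to 2104 and 2191 (log2 fold change 0.41). Its shcontrol libraries lay further apart than its shBDH1 libraries, and both stayed below them.

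EP300, which encodes p300, rose from 3876 and 3654 to 4448 and 4296 normalized counts (log2 fold change 0.22, SE 0.05, limma adjusted p = 0.0011). Its close relative CREBBP, which encodes CBP, was not called: it stood at 2808 and 2723 in shcontrol and at 2613 and 2442 in shBDH1, a log2 fold change of -0.13 with a 95% interval from -0.25 to -0.01 (adjusted p = 0.078). HAT1, which acetylates newly made histone H4 before it enters chromatin, rose from 2481 and 2265 to 2935 and 2941 (log2 fold change 0.31).

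The GNAT enzymes KAT2A (GCN5) and KAT2B (PCAF) exchange places in the same SAGA and ATAC coactivator complexes. KAT2A fell from 2671 and 2591 to 2332 and 2303 normalized counts (log2 fold change -0.18, SE 0.06, limma adjusted p = 0.014), and this call was lost without shcontrol replicate 1 (adjusted p = 0.12) or with upper-quartile factors (-0.14, adjusted p = 0.059). KAT2B, the rarer of the pair, rose from 632 and 575 to 873 and 843 (log2 fold change 0.51, SE 0.10, adjusted p = 0.00012).

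Of the 5 MYST enzymes, 1 rose and 1 fell. KAT5 (TIP60), the catalytic subunit of NuA4 and a known cofactor of MYC, fell from 2406 and 2501 to 1823 and 1974 normalized counts (log2 fold change -0.37, SE 0.06, limma adjusted p = 2.5e-05). KAT6A (MOZ) rose from 4383 and 4755 to 5352 and 5098 (log2 fold change 0.19), a call lost without shcontrol replicate 1 (adjusted p = 0.11). KAT6B, KAT7 and KAT8, which acetylate histones H3 or H4, had log2 fold changes of 0.03, 0.09 and -0.15 and were not called, with 95% intervals that together ran from -0.31 to 0.22.

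The zinc deacetylases were led by a rise of HDAC9, a class IIa enzyme that represses MEF2 target genes. HDAC9 (ENSG00000048052, chr7:18086949-19002416) was at 82.1 and 80.7 normalized counts in shcontrol and at 217 and 215 in shBDH1, with no overlap. The rise was 1.40 on the log2 scale, with an SE of 0.22, a 95% interval of 0.94 to 1.85 and an adjusted p of 8.3e-06 by limma. The other class IIa enzymes divided: HDAC4 rose from 10998 and 10817 to 12941 and 12925 (log2 fold change 0.25, adjusted p = 2.7e-06), and HDAC7, which is abundant in thymocytes, fell from 3774 and 3741 to 3089 and 3092 (log2 fold change -0.28, adjusted p = 6.8e-05). HDAC5 overlapped between the groups, at 925 and 940.3 against 833 and 925.

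Of the class I enzymes, the main histone deacetylases of the nucleus, HDAC1 and HDAC2 were not called. HDAC1, the most abundant of all 36 genes per length of transcript, was at 12128 and 12028 normalized counts in shcontrol and at 12325 and 12913 in shBDH1 (log2 fold change 0.06, 95% interval -0.01 to 0.14). With upper-quartile factors in edgeR its rise was called (0.11, adjusted p = 0.022), and without shBDH1 replicate 1 the value was 0.10. HDAC2 had 5447 and 5435 against 5152 and 5218 (log2 fold change -0.07, 95% interval -0.16 to 0.02). These intervals leave no room for a change of 1.5-fold in either gene, on the model used. HDAC3, the enzyme of nuclear receptor corepressor complexes, fell from 3117 and 2954 to 2608 and 2747 (log2 fold change -0.18, limma adjusted p = 0.012), a call lost without shcontrol replicate 1 (adjusted p = 0.16), without shBDH1 replicate 1 (0.084) or with upper-quartile factors (0.052). HDAC6, the cytosolic tubulin deacetylase, fell from 2148 and 2059 to 1913 and 1840.3 (log2 fold change -0.16, adjusted p = 0.041), but was called in only 6 of 15 other settings. HDAC11, the class IV enzyme, had 365 and 273 against 261 and 322, and its groups overlapped.

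HDAC8 and HDAC10 were below the filter and were not tested. HDAC8 was at 2.05 and 2.04 normalized counts in shcontrol and at 7.86 and 6.03 in shBDH1, from 2 to 8 reads a library. HDAC10 was at 3.08 and 5.11 against 3.93 and 5.03, from 3 to 5 reads. Both share exons with another gene on the same strand: in GENCODE 29, 55.8% of the coding bases of HDAC8 (chrX:72329516-72573199) also belong to AL133500.1, and 95.5% of those of HDAC10 (chr22:50245183-50251405) to MAPK12. Of all annotated exon bases, the shared part was smaller, 5.19% for HDAC8 and 55.8% for HDAC10. AL133500.1 was itself low, at 2.05 and 6.13 normalized counts in shcontrol and at 8.85 and 4.02 in shBDH1. MAPK12 was at 564, 548, 606 and 613 normalized counts. How the read counter treated reads shared by such genes is not given in the sources used here, so these low values do not show that either enzyme was unexpressed.

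No sirtuin rose. Of the 7, 4 fell, with a median log2 fold change of -0.42. That is 57.1%, beside 20.8% of all genes tested that fell and 34.7% of those with a mean of at least 1000. Called in either direction were 41.1% and 60.9%. SIRT3, SIRT4, SIRT5 and SIRT6 lay below that mean. All 7 values lay below 0, as did those of 9769 of the 19301 genes tested. SIRT5 (ENSG00000124523, chr6:13574529-13615158), the mitochondrial desuccinylase, went from 1162 and 1040.4 to 815 and 755 normalized counts (log2 fold change -0.49, SE 0.09, limma adjusted p = 6.6e-05). SIRT6, which deacetylates histone H3 at promoters and telomeres, went from 837 and 795 to 636 and 576 (log2 fold change -0.43, SE 0.10, adjusted p = 0.00093). SIRT3, the main deacetylase of the mitochondrial matrix, where BDH1 resides, went from 881 and 883 to 681 and 639 (log2 fold change -0.42, SE 0.10, adjusted p = 0.00071). SIRT2, mostly cytosolic, went from 1740.4 and 1772 to 1261 and 1369.7 (log2 fold change -0.42, SE 0.07, adjusted p = 2.6e-05). For each of these 4 genes both shBDH1 libraries lay below both shcontrol libraries, with percent changes of the means from -25.1% to -28.7%.

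SIRT1, the best known nuclear sirtuin, and SIRT7, which acts in the nucleolus, were not called. SIRT1 had 1409.8 and 1374 normalized counts in shcontrol and 1279.7 and 1322 in shBDH1 (log2 fold change -0.10, 95% interval -0.25 to 0.06). SIRT7 had 1039 and 1105 against 1025 and 985 (log2 fold change -0.09, 95% interval -0.26 to 0.08). SIRT4, another mitochondrial member, was low at 135 and 99.1 against 98.3 and 132, its groups overlapped, and its sign changed in 3 of 15 other settings. Whether the called sirtuins changed more than these 3 was not tested.

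To compare genes with each other, values were divided by the length of the principal transcript and are given as normalized counts per kb. HDAC1 stood highest, at 5687 per kb on average in shcontrol, followed by BRD9 at 2323, BRD2 at 1937, HDAC3 at 1549.5 and HAT1 at 1459. Within the zinc deacetylases the order in shcontrol ran from HDAC1 over HDAC3, HDAC4 (1215), HDAC7 (918), HDAC2 (551) and HDAC6 (501) to HDAC5 (175), HDAC11 (108) and HDAC9 (25.4). HDAC9 thus remained the least abundant of the tested deacetylases after its rise, at 67.4 per kb in shBDH1. Among sirtuins SIRT2 led at 848 and SIRT4 came last at 96.0. BRD3 moved from place 13 of the 36 in shcontrol (814 per kb) to place 21 in shBDH1 (396 per kb), below all other readers. The order depends on the transcript assumed: by all annotated exons, BRD9 would come in place 10 instead of 2 and HAT1 in place 14 instead of 5. HDAC4 would come in place 3, before HDAC3 in place 7. Among sirtuins, SIRT1 would then lead at 306 per kb, before SIRT6 at 293 and SIRT2 at 282.

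Summed over each class, the 7 sirtuins went from 3045 and 3004 normalized counts per kb to 2454 and 2453, a ratio of 0.81. The 6 readers went from 7619.5 and 7329 to 6752 and 6944 (ratio 0.92), the 12 acyltransferases from 6382 and 6309 to 6627 and 6654 (ratio 1.05), and the 11 zinc deacetylases from 10836 and 10627 to 10623 and 10997 (ratio 1.01). The zinc deacetylase sum is mostly HDAC1 and overlapped between the groups. The other 3 sums did not overlap.

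**Figure D2:**
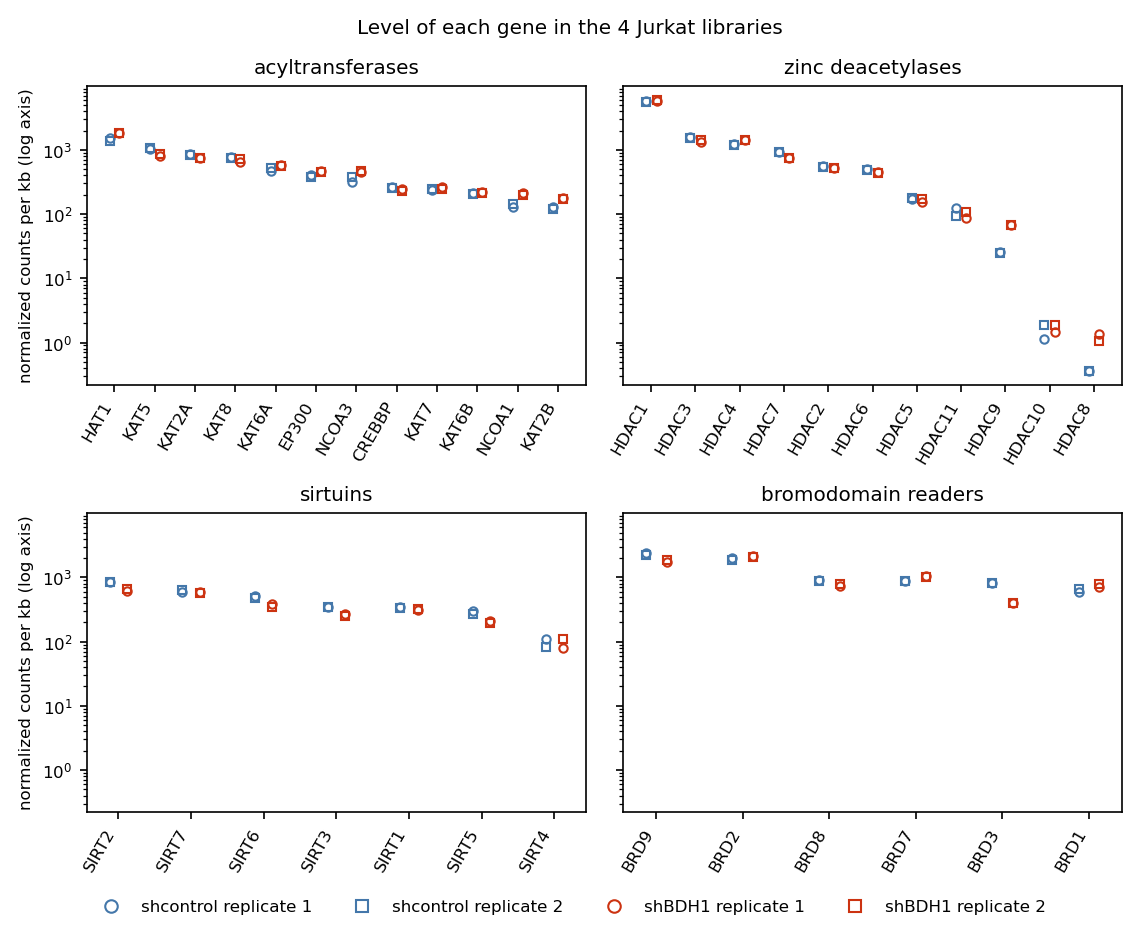
Normalized counts per kb of principal transcript (log axis) of each of the 36 genes in each of the 4 libraries, in 1 panel per class, with genes ordered by their shcontrol mean. HDAC1 is highest at 5687 per kb in shcontrol. HDAC8 and HDAC10, which were not tested, lie lowest, between 0.359 and 1.90 per kb. Among the 34 tested genes the shBDH1 libraries stand apart most clearly for BRD3 and HDAC9.

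The balance between related genes can be read as a ratio within each library, where depth and scaling cancel. It was computed for 10 pairs chosen with the values known. In 2 of them, NCOA1 with NCOA3 and HDAC4 with HDAC9, both genes rose. The log2 ratio of BRD2 to BRD3 was 1.10 and 0.98 in shcontrol and 2.22 and 2.20 in shBDH1, a change of 1.17. The ratio of HDAC4 to HDAC9 fell by 1.15, that of KAT2A to KAT2B by 0.69, and those of BRD7 to BRD9, HDAC4 to HDAC7 and EP300 to CREBBP went up by 0.62, 0.53 and 0.35. The ratios of KAT6A to KAT6B, NCOA1 to NCOA3, HDAC1 to HDAC2 and HDAC4 to HDAC5 went up by 0.13 to 0.33. The groups were separate for each of the 10 ratios, but 69.0% of single genes also had separate groups and ratios of other gene pairs were not computed, so nothing is read from that count. With 2 libraries against 2, the exact two-sided permutation test cannot go below p = 0.333, which each pair reached, so no pair passes a threshold.

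**Figure D3:**
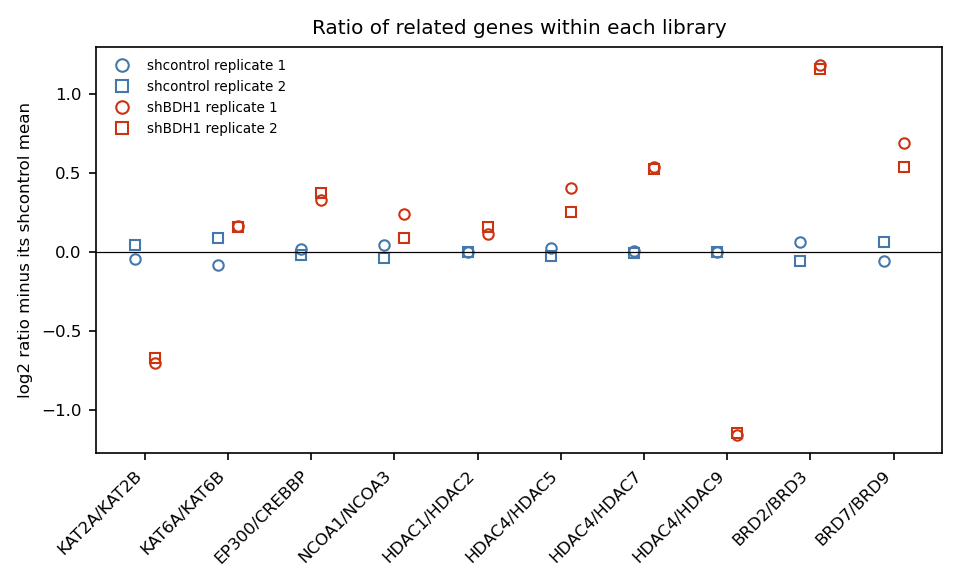
Log2 ratio of normalized counts of 10 pairs of related genes in each library (y axis), after subtracting the pair's shcontrol mean. Both shBDH1 libraries lie above shcontrol by 1.17 on average for BRD2/BRD3 and below it by 1.15 for HDAC4/HDAC9.

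Several of these genes overlap a neighbour on the opposite strand, and no strand setting is given in the sources used here, so reads of such pairs cannot be told apart. BRD3 shares 1281 exon bases with BRD3OS, which went from 3121 and 2932 normalized counts to 1254 and 1386 (log2 fold change -1.20, SE 0.07, limma adjusted p = 1.4e-14). KAT5 (chr11:65711996-65719604) shares 1439 bases with RNASEH2C, a subunit of RNase H2, which fell with it (log2 fold change -0.43). SIRT2 shares only 40 bases with NFKBIB, which encodes an NF-kB inhibitor and fell by 0.54, and SIRT3 shares 316 with the proteasome gene PSMD13, which fell by 0.21 on the log2 scale. BRD8 overlaps the mitotic kinesin gene KIF20A by 132 bases (log2 fold change -0.62). BRD7 shares 3593 bases with ADCY7, which was not called (log2 fold change 0.14), and KAT7 shares 295 with FAM117A, which rose by 0.80 while KAT7 was not called. Unnamed transcripts lie opposite SIRT5 (AL441883.1, 1045 shared bases, log2 fold change -0.01), BRD2 (AL645941.3, 577 bases, 0.05) and HDAC7 (AC004466.1, 963 bases, -0.21), none of them called, and opposite HDAC3 (AC008781.1, 426 bases, -0.16, called). Some neighbours share exons on the same strand. KAT2A shares 405 bases with AC099811.2, which was low and called lower (16.4 and 28.6 against 4.91 and 4.02 normalized counts). BRD9 shares 222 bases with ZDHHC11, which was not called. SIRT7 shares 105 with MAFG, which rose by 0.43 on the log2 scale. The values of all the genes in these pairs are uncertain to the extent of the shared bases. Of the 13 genes with no exon overlap at all, 8 were called (KAT2B, KAT6A, NCOA1, HAT1, HDAC6, HDAC9, SIRT6 and BRD1). Of all genes tested 41.1% were called, and of those with a mean of at least 1000, 60.9%. HDAC5, HDAC9, KAT2B and SIRT6, which are among the 13, lay below that mean. Whether the calls depend on overlap was not tested.

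**Figure D4:**
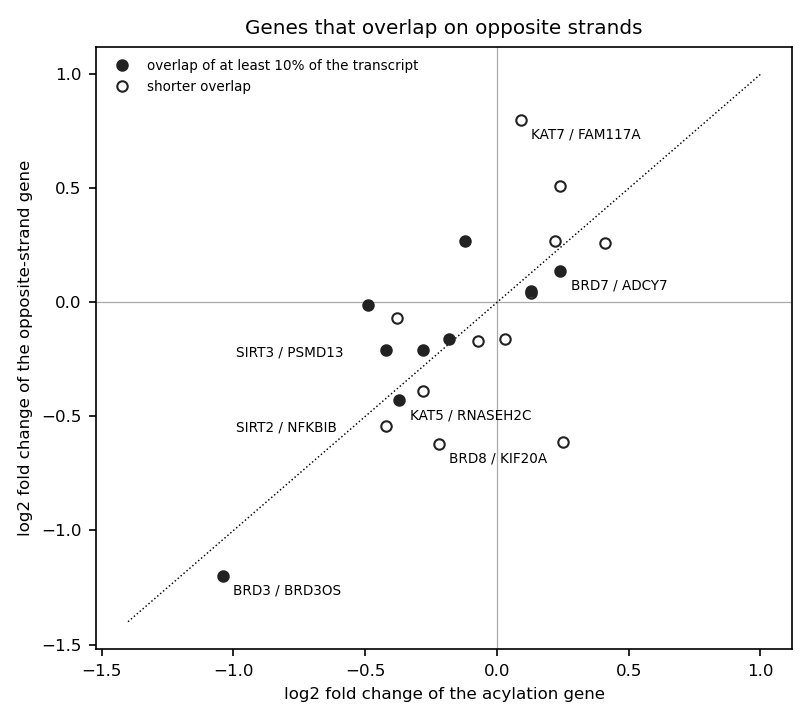
Log2 fold change of each acylation gene (x axis) and of the tested gene that overlaps its exons on the opposite strand (y axis), 21 pairs, filled where the overlap is at least 10% of the principal transcript; the dotted line marks equal values. BRD3 and BRD3OS lie together at -1.04 and -1.20.

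Promoter sequences of 32 of the genes were in RefSeq's table (GRCh38.p14, 250 bases before to 50 after the start); KAT6A, KAT8, HDAC5 and SIRT7 were not matched. Since MYC, named in the study's description, fell with BDH1 (14683 and 14804 against 7453 and 7368 normalized counts, log2 fold change -0.99), the letters of its binding site, the E-box CACGTG (the same on both strands), were searched. It occurred in a promoter of 3 of the 32 genes, HDAC4, KAT5 and SIRT1, and in 7.26% of all 35116 promoters. A gene can have more than 1 promoter in RefSeq, so the first share counts genes and the second counts promoters. These genes rose, fell and were not called, in that order. Their sites are shown because they are the direct letters a MYC dimer can read, each in a window of 30 bases, 5′ to 3′ on the gene's strand, with the E-box in capitals.
HDAC4 at chr2:239401650-239401679 (minus strand, 13 bases before the start): ccgtgcgcacgcagcacCACGTGacccact
KAT5 at chr11:65712005-65712034 (plus strand, 235 bases before the start): cccggtgggcgtCACGTGacggactcagta
SIRT1 at chr10:67884521-67884550 (plus strand, 123 bases before the start): gcctccgcccgcCACGTGacccgtagtgtt
SIRT1 at chr10:67884600-67884629 (plus strand, 44 bases before the start): gatggggcgggtCACGTGatggggtttaaa
A motif match in these windows is a description only.

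Of the 32 genes, SIRT5 and SIRT6 had a promoter with the NRF1 core (a palindrome, so the same on both strands). This core is bound by a factor of nuclear genes for mitochondria, and 1.24% of all promoters hold it. SIRT2 and SIRT3, which fell by like amounts (-0.42 each, beside -0.49 for SIRT5 and -0.43 for SIRT6, on the log2 scale), held no match in their promoter windows. The windows show where it lies, with the core in capitals.
SIRT5 at chr6:13574451-13574480 (plus strand): ggtccgcggtGCGCATGCGCggcccggcct
SIRT6 at chr19:4182655-4182684 (minus strand): tcagcaagagGCGCATGCGCcttgccgtgg
The ETS core CCGGAAGT or its reverse complement ACTTCCGG was in the promoters of HAT1, KAT5, KAT7 and SIRT3 and in 4.14% of all, and the cyclic AMP response element TGACGTCA (the same on both strands) in that of SIRT4 and in 1.85% of all.

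Partner subunits and cofactor enzymes were read from 4 further lists. Of 46 measured partners of acyltransferases, 5 rose and 17 fell (median log2 fold change -0.11). So 47.8% were called, beside 41.1% of all genes tested and 60.9% of those with a mean of at least 1000. TADA3, which joins KAT2A or KAT2B to SAGA, fell from 2652 and 2681 to 1747 and 1954 normalized counts (log2 fold change -0.53). YEATS2 of the ATAC complex fell by 0.47 and EP400, the remodeller that works with KAT5, by 0.36 on the log2 scale, while MORF4L1, also of NuA4, rose from 5677 and 5910.4 to 8903 and 9304 (log2 fold change 0.65). The count of risers was 2 without shBDH1 replicate 1.

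Of 41 measured subunits of deacetylase corepressors, 12 rose and 9 fell (median -0.05). So 51.2% were called, beside the same 41.1% of all genes and 60.9% of those with a mean of at least 1000. MTA1, which belongs to the NuRD complex of HDAC1 and HDAC2, fell from 8115 and 7986 to 4547 and 4909 normalized counts (log2 fold change -0.77, SE 0.05, limma adjusted p = 5.9e-14). GATAD2A, also of NuRD, and HMG20B, of the CoREST complex, fell by 0.60 and 0.54 on the log2 scale. TBL1XR1, which works with HDAC3 in its corepressor complex, rose by 0.50. CHD4 of NuRD, also counted as a riser, was low, at 28.7 and 41.9 against 71.7 and 66.4 normalized counts (log2 fold change 0.97). With only genes of a mean of at least 100, the risers numbered 11. The count of risers was 7 without shBDH1 replicate 1, and that of fallers was 6 without shcontrol replicate 2.

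Of 31 other readers of acylated lysine, 15 rose and 5 fell (median 0.13), so 64.5% were called, beside 41.1% of all genes and 60.9% of those with a mean of at least 1000. MLLT1 (ENL), a YEATS-domain reader of acetyl and crotonyl lysine, fell from 4884 and 4593 to 2075 and 2140 normalized counts (log2 fold change -1.17, SE 0.06, limma adjusted p = 3.8e-16). The alternative SWI/SNF motors moved apart: SMARCA4 (BRG1) fell from 11255 and 10541 to 6692 and 6926, and SMARCA2 (BRM) rose from 1528 and 1562 to 2796 and 2588 (log2 fold changes -0.68 and 0.80). DPF3, a reader that joins SWI/SNF, rose from 144 and 186 to 659.5 and 677 (log2 fold change 2.02). The count of fallers was 3 without shcontrol replicate 2 or without shBDH1 replicate 2, and also with DESeq2, upper-quartile factors, equal library totals or no filter.

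Of 26 tested genes that supply acyl-CoA or NAD or use NAD, 7 rose and 8 fell, BDH1 among the latter (median -0.07). So 57.7% were called, beside 41.1% of all genes and 60.9% of those with a mean of at least 1000. CD38, which breaks down NAD, rose from 647 and 835 to 1749.5 and 1675 normalized counts (log2 fold change 1.22, SE 0.09, limma adjusted p = 1.4e-11). Of the routes to NAD, QPRT of the de novo route rose by 0.67 and NADSYN1, the NAD synthetase, fell by 0.49 on the log2 scale. PDHX, a component of pyruvate dehydrogenase, rose by 0.47. The count of fallers was 5 without shcontrol replicate 1.

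**Figure D5:**
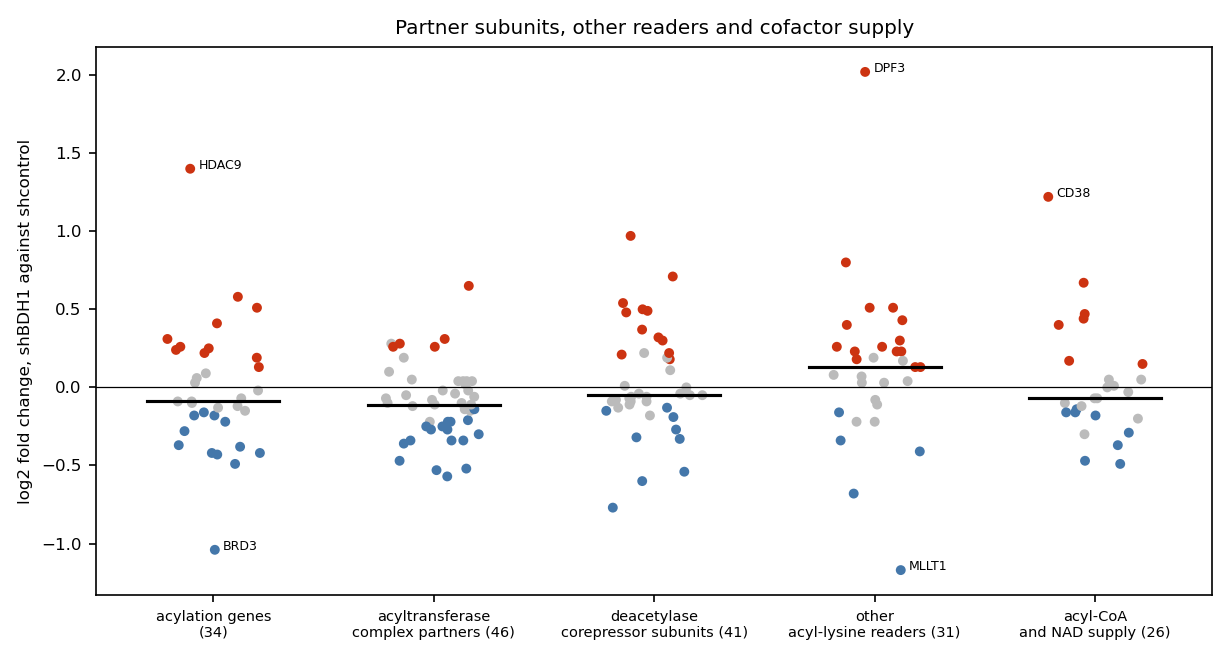
Log2 fold change (y axis) of the 34 tested acylation genes and of the 4 further lists, with 1 point per gene, red where higher and blue where lower at an adjusted limma p under 0.05, grey where not called, and the list's median as a black bar. Medians lie between -0.11 and 0.13, and the genes past 2-fold that are named in the picture are HDAC9, BRD3, DPF3, MLLT1 and CD38.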

How the data were processed

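The authors deposited 1 normalized signal value per gene and library, gene read counts divided by 1 size factor per library, although the table is called raw. This was found from the values: 100.0% were whole multiples of 1 step per library, within 0.01 reads, with size factors from 0.9739 to 1.0174. The submitters' processing notes name hg38, FastQC 0.11.9 and HISAT2 2.2.1. For the counter, its annotation and its strand setting, the sources used here give nothing. Columns were matched to libraries by title, and 21 symbols turned into dates were renamed by gene ID. Libraries of a group differed by more than sampling noise (chi-square per degree of freedom 3.71 and 4.98, beside 42.4 to 45.2 between groups). The labels do not say whether equal replicate numbers pair the libraries. The correlation of their deviations was 0.00 over all genes tested and 0.04 at a mean of at least 100.

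Values were compared with limma 3.58.1 (R 4.3.3) on log2(value + 1), which understates the change of low genes, with a prior on the variance that depends on abundance (2 residual and 25.8 prior degrees of freedom). Genes with a mean of at least 10 entered. P-values were adjusted by Benjamini and Hochberg's method over all 19301 genes. The code of the fits was also run on simulated reads with far fewer changed genes, which says nothing about the calls given here. Alternatives used edgeR 4.0.16, DESeq2 1.42.0 and voom on the recovered reads, and other settings given at the end. Positions, lengths and overlaps came from GENCODE 29, where 25010 of 25122 gene IDs were found. The 36 genes and the lists were chosen with earlier results of these data known. All 36 are named, with up to 4 genes of smallest p from each further list, BDH1, the low gene CHD4, and some of the overlapping neighbours. 1 gene of these lists is not reported here and is left out of its list's counts.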

Additional observations from a re-analysis of the deposited data

How the results depend on the processing

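Of 15 other settings, the one without the abundance-dependent prior moved most counts: of all genes 1598 rose and 1246 fell, of the acylation genes 2 and 2, of acyltransferase partners 1 and 3, of corepressor subunits 2 and 3, of other readers 4 and 3, and of cofactor genes 2 and 2, and the fall of BDH1 kept its size (-0.47) with an adjusted p of 0.083 by limma. That setting gives genes of all levels 1 prior spread. In the other 14 settings 10 to 12 acylation genes rose and 9 to 12 fell. Leaving out each library in turn gave 10 to 12 risers and 9 to 12 fallers among them, 2 to 6 risers among acyltransferase partners, 7 to 10 among corepressor subunits, 3 to 4 fallers among other readers and 5 to 7 among cofactor genes. The fallers among other readers also numbered 3 with DESeq2, equal library totals, upper-quartile factors or no filter; the cause was not tested. Upper-quartile factors called 4422 genes higher and 3331 lower, and moved the median of all genes to 0.04. The calls of BRD3, HDAC9, KAT2B and SIRT3 held in all 15 settings. The sign changed for HDAC11 without shcontrol replicate 1 (0.09) or shBDH1 replicate 1 (0.03, lowest -0.33 over the 4 omissions), for SIRT4 without the same libraries (0.20 and 0.19, lowest -0.24) or with upper-quartile factors (0.02), for AL441883.1, opposite to SIRT5, without them (0.74 and 0.23, lowest -0.75) or with equal library totals (0.02), and for AL645941.3, opposite to BRD2, without shcontrol replicate 2 (-0.01) or shBDH1 replicate 2 (-0.03, highest 0.13), none of them called. With the replicate number as a block, 11 acylation genes rose and 12 fell, and 4108 and 4217 of all genes. The labels do not say whether libraries of the same number were handled together. Depth limits the low genes: the SE was 0.22 for HDAC9 and 0.25 for SIRT4, beside a median of 0.06 for the 34 genes, and HDAC8 and HDAC10 were too low to compare.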
